A study of Mus musculus with 14 samples.

Results

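The 10 genes described here encode the cAMP circuit that holds a mouse oocyte in meiotic arrest. They are the receptors Gpr3 and Gpr12, the G protein subunit Gnas, the adenylyl cyclases Adcy3 and Adcy9, the phosphodiesterase Pde3a, the protein kinase A subunits Prkaca, Prkacb and Prkar1a, and the gap junction gene Gja4. They were chosen by gene symbol from knowledge of the pathway, with earlier results of these data known. All 10 were found among the 18562 genes listed in at least 1 of the count tables for the 2 oocyte stages.

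RNA was sequenced from 14 libraries of mouse oocytes in 4 groups. Ovulated CKO (3 libraries) and germinal vesicle (GV) CKO (4 libraries) came from Clpxfl/fl mice with a Zp3-Cre transgene, whose zona pellucida promoter is active in growing oocytes. Ovulated WT (3 libraries) and GV WT (4 libraries) came from Clpxfl/fl mice without Cre, so every group carries the floxed Clpx alleles and the controls are not free of them. The genotype field gives Clpxfl/fl for all WT libraries, while the titles of the ovulated WT libraries spell it Clpxfl/f. Clpx encodes the unfoldase of a protease in the mitochondrial matrix. GV oocytes still have their nucleus and rest in meiotic prophase, whereas ovulated ones have restarted meiosis and been released. The labels give neither the age of the mice nor the number of oocytes or animals behind a library, so p-values measure the spread between these libraries, which may be partly technical.

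In rodent oocytes, GPR3 and GPR12 signal without a known need for added ligand through the stimulatory G protein alpha subunit encoded by Gnas, and adenylyl cyclases then make cAMP. The cAMP binds the regulatory subunits of protein kinase A and frees the catalytic subunits, which keep the cell cycle kinase CDK1 off by acting on CDC25B and WEE2. Granulosa cells send cGMP into the oocyte through gap junctions made partly of connexin 37, the product of Gja4, and that cGMP inhibits PDE3A, the enzyme that breaks down cAMP in the oocyte. Ahead of ovulation cGMP falls, PDE3A becomes active and meiosis resumes.

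Oocytes store mRNAs with short poly(A) tails and lengthen the tails of some during maturation, through a cytoplasmic polyadenylation element (CPE) near the 3′ end that works together with the AATAAA or ATTAAA poly(A) signal. Libraries were made with SMART-Seq2, which primes on poly(A) tails. The 3′ ends of the 10 genes were searched for TTTTAT or TTTTAAT, on the transcript strand, in the last 120 bases of the GENCODE M21 transcript with the longest 3′ UTR (genome build GRCm38, which is mm10). The element was found in Prkacb, Adcy3 and Pde3a. The stretches that hold it are given here, with one from Gja4, which lacks it and had the largest stage difference, written 5′ to 3′ with the CPE and the poly(A) signal in capitals.
Prkacb: TTTTAATtcatcaataaccgcaaaATTAAA
Adcy3: ctgTTTTATTAAAagctttactcaacttga
Pde3a: agaattgacaTTTTAATccacaagtattaa
Gja4: gatcctcaAATAAAcaggactccatcataa
In Prkacb, on the minus strand of chromosome 3, the CPE starts 49 bases from the transcript end and the signal 25 bases from it. In Adcy3, on the plus strand of chromosome 12, the CPE overlaps the signal, so these capitals are a single run. Pde3a, on the plus strand of chromosome 6, has its CPE 110 bases from the end and neither signal in the 120 bases. That GENCODE transcript ends at 141507448, past the RefSeq end of the gene at 141506862, so the stretch shown lies beyond the RefSeq gene. Gja4, on the minus strand of chromosome 4, has its signal 22 bases from the end and no CPE in the window. Across the genome annotation, 20% of 19546 genes held a CPE in this window, and 3 of the 10 genes did. The files do not say which 3′ end an oocyte uses, so a match describes these letters and not a site in use.

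Total estimated counts were between 25086506 and 28471453 per library. Clpx, the deleted gene, was at 0.269 to 0.575 CPM (counts divided by the scaled library size in units of 1e+06) in ovulated CKO and 17.0 to 19.1 CPM in ovulated WT, and at 0.676 to 1.44 CPM in GV CKO and 39.6 to 58.1 CPM in GV WT. Every library thus matched the genotype in its label, while Clpx does not check the stage. The 13 oocyte markers examined were counted in every library. Their summed level was 12700 to 15000 CPM in ovulated CKO and 25200 to 53900 CPM in GV CKO, and 12300 to 16500 CPM in ovulated WT and 27200 to 42700 CPM in GV WT. The 17 granulosa and cumulus markers summed to 65.5 to 107 CPM in ovulated CKO and 43 to 68 CPM in GV CKO, and to 64.5 to 129 CPM in ovulated WT and 54.1 to 69.8 CPM in GV WT. Between 6 and 14 of the 17 had a count in a library, and Cyp19a1 made up most of the sum. Foxl2 and Amh were not listed for ovulated oocytes. Tnfaip6 and Ptx3 were not listed for GV oocytes but were counted in ovulated WT, and Tnfaip6 in ovulated CKO as well. Markers of theca, stroma, endothelium and blood (12 genes) summed to 59 to 79.1 CPM in ovulated CKO and 26.2 to 46.7 CPM in GV CKO, and to 47.8 to 110 CPM in ovulated WT and 43.2 to 53.4 CPM in GV WT. Most of this came from Pecam1, which averaged 62.2 CPM in ovulated CKO, 68.7 CPM in ovulated WT, 31.7 CPM in GV CKO and 35 CPM in GV WT. Cyp17a1, Col1a2, Col3a1 and Ptprc were not listed for ovulated oocytes. The part of these cells in the results was not tested.

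Levels of different genes are compared as FPKM, which divides by gene length. In GV oocytes of both genotypes the order was Gja4, Gnas, Prkar1a, Gpr3, Pde3a, Prkaca, Adcy9, Prkacb, Gpr12 and Adcy3. Gja4 averaged 270.9 ± 98.7 FPKM in GV CKO and 421.8 ± 103.9 FPKM in GV WT (SD, n = 4 each), above 97.9% and 98.7% of the listed genes, and its libraries did not overlap those of Gnas. Gnas averaged 44.9 ± 9.05 FPKM in GV CKO and 53.0 ± 19.1 FPKM in GV WT (SD, n = 4 each). The first 4 genes did not overlap one another in GV CKO or in GV WT, whereas from Gpr3 down every neighbour in GV CKO overlapped the next. In GV WT, Gpr3 stood clear of Pde3a, and Prkaca clear of Adcy9. The remaining neighbours overlapped.

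Ovulated oocytes had another order. Gnas led at 135.3 ± 26.9 FPKM in ovulated CKO and 118 ± 38.5 FPKM in ovulated WT (SD, n = 3 each), followed by Prkar1a and then Pde3a. Gja4 averaged 25.2 ± 8.70 FPKM in ovulated CKO and 16.7 ± 7.00 FPKM in ovulated WT (SD, n = 3 each), and overlapped with Pde3a, Gpr3 and Prkaca in both genotypes. Gpr3 and Prkaca also overlapped in both, and Pde3a with Gpr3 and Adcy9 with Prkacb in WT only. Gpr12 and Adcy3 stayed at the bottom, with means of 0.62 and 0.107 FPKM in ovulated CKO and 0.32 and 0.13 FPKM in ovulated WT. Their counts ranged from 7 to 44 reads per library for Gpr12 and from 9 to 27 for Adcy3, so only large differences could be seen in them. FPKM tables of the 2 stages were scaled separately, so stages are compared below on counts.

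**Figure D1:**
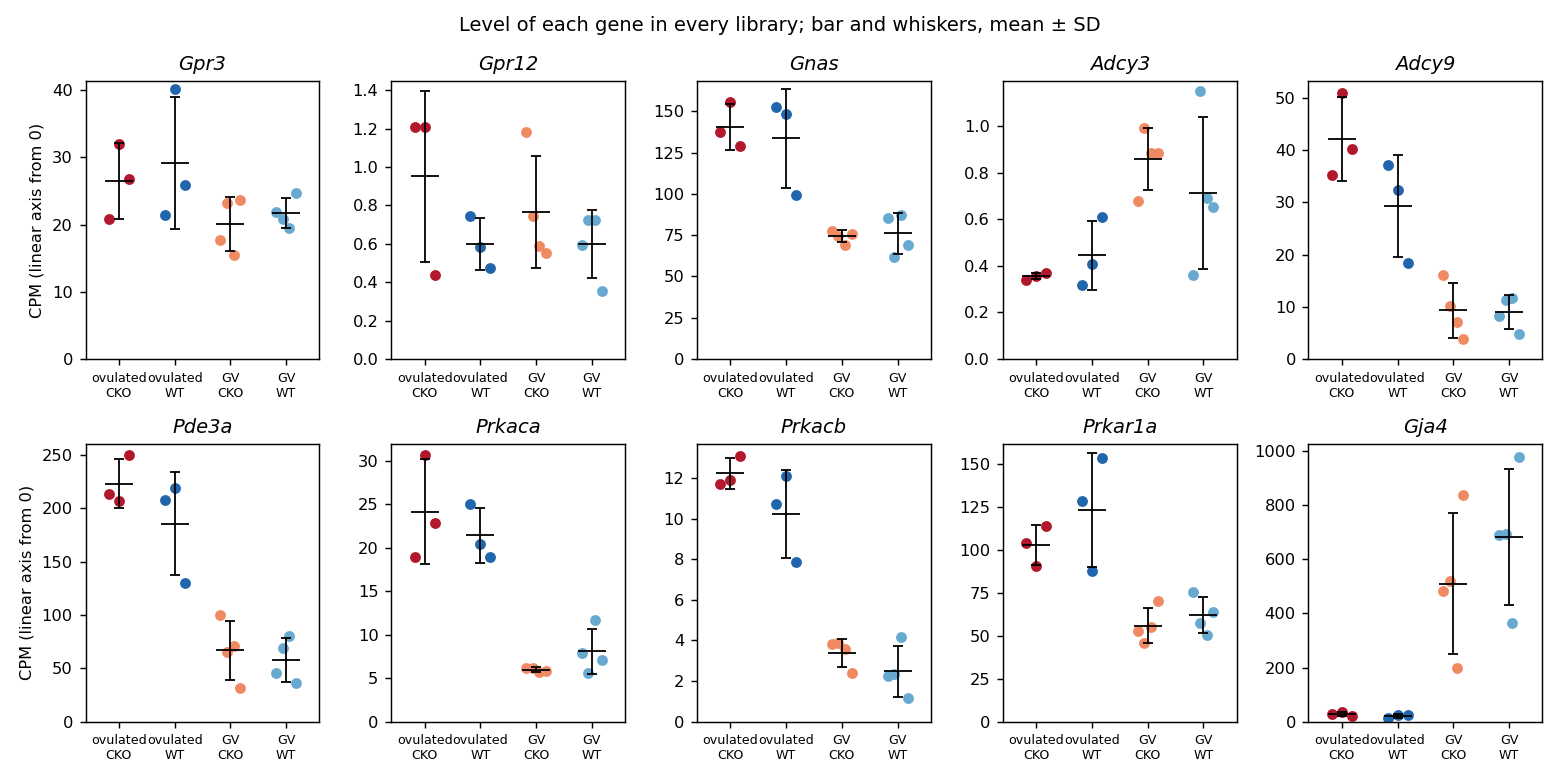
Level of each of the 10 genes in every library, in CPM on linear axes that start at 0, with the mean and SD of each group. From left to right the groups are ovulated CKO, ovulated WT (3 libraries each), GV CKO and GV WT (4 each). Gja4 lies at 36.8 CPM or less in all 6 ovulated libraries and between 199.8 and 978.5 CPM in the GV libraries, while Pde3a, Adcy9, Prkaca and Prkacb are higher in every ovulated library than in every GV library.

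The comparison of stages asked how the circuit's mRNAs differ between oocytes held in arrest and oocytes that have resumed meiosis. In CKO oocytes 6 of the 10 genes rose, 1 fell and 3 did not pass an edgeR adjusted p of 0.05. In WT oocytes the counts were also 6, 1 and 3, and the 7 genes that passed were Gnas, Adcy9, Pde3a, Prkaca, Prkacb, Prkar1a and Gja4 in both genotypes. These counts are to be read against the background, since 55.7% of the 13158 genes tested passed in CKO oocytes (25.8% higher, 29.9% lower) and 63.7% passed in WT oocytes (29.7% higher, 34% lower). The median log2 fold change of the 10 genes, ovulated over GV, was 0.90 in CKO and 0.90 in WT, against -0.14 and -0.08 over all genes tested. Gja4 fell most, and the genes that rose did so by 1.76-fold (Gnas in WT) to 4.52-fold (Adcy9 in CKO). Scaled to total counts instead, the median of all genes moved to 0.45 in CKO and 0.26 in WT, and the 6 genes that rose had log2 values of 1.47 (Prkar1a) to 2.74 (Adcy9) in CKO and 1.12 (Gnas) to 2.31 (Prkacb) in WT. The libraries of the stages did not overlap for 8 of the 10 genes in CKO and 7 in WT, against 58.6% and 62.3% of all genes tested. The values are shares of a library's reads, so fewer transcripts per oocyte and fewer oocytes cannot be told apart, nor can stage and the table that holds it.

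The receptors did not pass in either genotype. Gpr3, the receptor whose loss in mice lets oocytes resume meiosis early, lies on chromosome 4 (133209340 to 133212536; gene ID 14748). It had 20.8, 32.0 and 26.7 CPM in ovulated CKO, against 17.8, 23.3, 15.5 and 23.6 CPM in GV CKO. In WT it had 21.4, 40.1 and 25.9 CPM in ovulated oocytes, against 21.9, 20.8, 19.6 and 24.7 CPM in GV oocytes. The stages overlapped in both genotypes. The log2 fold change was 0.40 (95% interval -0.15 to 0.96, edgeR adjusted p = 0.199) in CKO and 0.42 (95% interval -0.13 to 0.97, adjusted p = 0.167) in WT. With total-count scaling Gpr3 passed in both, with 1.05 in CKO (adjusted p = 0.0114) and 0.82 in WT (adjusted p = 0.0353). Set against the median of all genes, which that scaling also moved, the value of Gpr3 was about the same under either scaling.

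Gpr12, the related receptor that rat oocytes rely on, lies on chromosome 5 (146582150 to 146586465; gene ID 14738). Its level was 0.438 to 1.21 CPM in ovulated CKO, against 0.552 to 1.18 CPM in GV CKO, and 0.473 to 0.744 CPM in ovulated WT, against 0.352 to 0.724 CPM in GV WT. These ranges lie over each other, and the 95% interval of the log2 fold change was -0.78 to 1.40 in CKO and -1.10 to 1.10 in WT.

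Gnas, which encodes the stimulatory G protein alpha subunit, lies in an imprinted locus on chromosome 2 (174284320 to 174346744; gene ID 14683). It had 137.2, 155.6 and 128.7 CPM in ovulated CKO, against 77.7, 74.3, 69.2 and 75.9 CPM in GV CKO. WT libraries had 152.8, 148.4 and 99.3 CPM in ovulated oocytes, against 85.5, 62.0, 87.5 and 69.0 CPM in GV oocytes. The stages did not overlap. Gnas rose 1.89-fold in CKO (log2 0.92, SE 0.21, edgeR adjusted p = 0.00169) and 1.76-fold in WT (log2 0.81, SE 0.21, adjusted p = 0.00331). The tables give 1 value for the locus, so its alternative first exons and its antisense partner, whose span overlaps, cannot be told apart.

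Of the cyclases that make cAMP, Adcy9 rose and Adcy3 did not pass. Adcy9 (chromosome 16, 4284886 to 4437236; gene ID 11515) had 35.2, 50.9 and 40.3 CPM in ovulated CKO, against 16.2, 10.1, 7.09 and 3.87 CPM in GV CKO. In WT it had 37.1, 32.4 and 18.4 CPM in ovulated oocytes, against 8.26, 11.4, 11.8 and 4.77 CPM in GV oocytes. The stages did not overlap, and the GV CKO libraries spread widely. Adcy9 rose 4.52-fold in CKO (log2 2.18, SE 0.41, edgeR adjusted p = 0.000349) and 3.23-fold in WT (log2 1.69, SE 0.41, adjusted p = 0.00177).

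Adcy3, a cyclase found in mouse oocytes, lies on chromosome 12 (4133116 to 4213525; gene ID 104111). It had 0.341 to 0.370 CPM in ovulated CKO, against 0.676 to 0.990 CPM in GV CKO, with no overlap, and 0.319 to 0.608 CPM in ovulated WT, against 0.362 to 1.15 CPM in GV WT, with overlap. The log2 fold change was -1.26 (SE 0.53, edgeR adjusted p = 0.0529) in CKO and -0.67 (SE 0.52, adjusted p = 0.269) in WT. The annotated span of Adcy3 overlaps that of Cenpo, a centromere gene at a mean of 60 CPM in ovulated CKO, 78.1 CPM in ovulated WT, 255 CPM in GV CKO and 224 CPM in GV WT. Reads of the overlap could be counted for either, and at 9 to 27 reads the level of Adcy3 is uncertain for that reason.

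Pde3a encodes the phosphodiesterase whose activity ends the arrest (chromosome 6, 141249269 to 141506862; gene ID 54611). In CKO it had 213.2, 206.3 and 249.5 CPM in ovulated oocytes, against 99.7, 65.1, 71.1 and 31.9 CPM in GV oocytes. Among WT libraries it had 208, 219.1 and 129.9 CPM in ovulated oocytes, against 46.0, 68.9, 80.7 and 35.9 CPM in GV oocytes. The groups did not overlap in either genotype, and ovulated WT replicate 3 was the lowest of the ovulated libraries. Pde3a rose 3.33-fold in CKO (log2 1.74, SE 0.34, edgeR adjusted p = 0.000488) and 3.21-fold in WT (log2 1.68, SE 0.34, adjusted p = 0.000459).

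The catalytic subunits of protein kinase A rose in ovulated oocytes. Prkaca encodes the alpha form (chromosome 8, 83972978 to 83996444; gene ID 18747). It had 18.9, 30.7 and 22.9 CPM in ovulated CKO, against 6.17, 6.24, 5.73 and 5.80 CPM in GV CKO. In WT it had 25.04, 20.4 and 19.0 CPM in ovulated oocytes, against 7.93, 5.62, 11.7 and 7.13 CPM in GV oocytes. All ovulated libraries were above all GV libraries, and the GV CKO libraries lay close together. Prkaca rose 4.04-fold in CKO (log2 2.01, SE 0.27, edgeR adjusted p = 2.57e-05) and 2.65-fold in WT (log2 1.41, SE 0.27, adjusted p = 0.000285).

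Prkacb encodes the beta form of the catalytic subunit (chromosome 3, 146729579 to 146812946; gene ID 18749) and carries a CPE close to its poly(A) signal. It had 11.7, 11.9 and 13.1 CPM in ovulated CKO, against 3.804, 3.86, 3.56 and 2.38 CPM in GV CKO. In the WT libraries it had 10.7, 12.1 and 7.88 CPM in ovulated oocytes, against 2.24, 2.34, 4.18 and 1.16 CPM in GV oocytes. The stages did not overlap, and GV WT replicate 4 rested on 23 reads, the fewest of any library. Prkacb rose 3.59-fold in CKO (log2 1.84, SE 0.35, edgeR adjusted p = 0.000387) and 4.10-fold in WT (log2 2.03, SE 0.36, adjusted p = 0.000122).

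Prkar1a encodes the type I alpha regulatory subunit, which holds the catalytic subunits inactive until cAMP binds (chromosome 11, 109649023 to 109669663; gene ID 19084). It had 103.9, 90.7 and 114 CPM in ovulated CKO, against 52.5, 45.8, 55.2 and 70.4 CPM in GV CKO. In WT it had 128.3, 87.9 and 153.5 CPM in ovulated oocytes, against 75.5, 57.8, 50.8 and 63.9 CPM in GV oocytes. The stages did not overlap here either, but the gap was narrow. Prkar1a rose 1.84-fold in CKO (log2 0.88, SE 0.24, edgeR adjusted p = 0.00478) and 1.99-fold in WT (log2 0.99, SE 0.24, adjusted p = 0.00162).

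Gja4 had the largest difference of the 10 genes. It lies on chromosome 4 (127311420 to 127314039, build GRCm38; gene ID 14612) and its product forms the channels between the oocyte and its granulosa cells. Among CKO libraries it had 28.5, 36.8 and 21.9 CPM in ovulated oocytes, against 482.4, 519.4, 199.8 and 837 CPM in GV oocytes. Among WT libraries it had 12.4, 23.8 and 24.9 CPM in ovulated oocytes, against 688.2, 695.1, 363.4 and 978.5 CPM in GV oocytes. No ovulated library came near a GV library, although GV replicate 3 was the lowest and replicate 4 the highest in both genotypes. The log2 fold change was -4.13 (SE 0.49, edgeR adjusted p = 9.33e-06) in CKO and -5.06 (SE 0.51, adjusted p = 1.39e-06) in WT, which is 17.5-fold and 33.4-fold lower. Over the alternatives run, the log2 value lay between -4.40 and -3.40 in CKO and between -5.27 and -4.62 in WT, with -3.40 and -4.62 under total-count scaling. Only 1.49% of the genes tested in CKO and 2.24% of those in WT had a lower value.

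**Figure D2:**
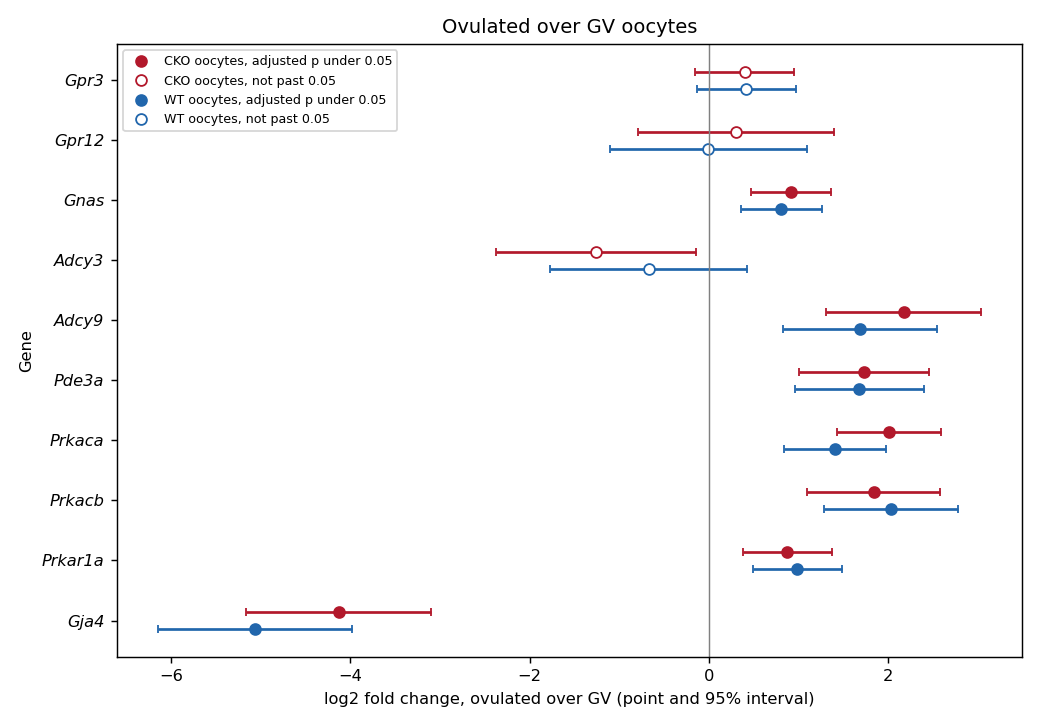
Log2 fold change of each gene, ovulated over GV, in CKO oocytes (red) and WT oocytes (blue), with 95% intervals. Filled points passed an edgeR adjusted p of 0.05 and open points did not. The 6 genes that rose lie between 0.81 and 2.18 in both genotypes, and Gja4 lies at -4.13 and -5.06.

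Ratios within a library set chosen members against one another, as FPKM over FPKM. Pde3a over Gpr3 sets the gene for cAMP breakdown against that for the main receptor alone. Adcy9 and Gnas, on the side of cAMP synthesis, are left out, and they rose too (log2 2.18 and 0.92 in CKO, 1.69 and 0.81 in WT). The Pde3a over Gpr3 ratio therefore does not give the balance of cAMP synthesis and breakdown. This ratio was 1.57 ± 0.359 in ovulated CKO and 0.644 ± 0.34 in GV CKO, and 1.22 ± 0.458 in ovulated WT and 0.494 ± 0.216 in GV WT (SD, n = 3 ovulated and 4 GV). It reached 1.01 in a single GV library, and the ovulated WT libraries began at 0.921 and the ovulated CKO libraries at 1.17, so the stages did not overlap within a genotype.

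Prkar1a over the sum of Prkaca and Prkacb sets the type I alpha regulatory subunit gene alone against the catalytic ones. The regulatory genes Prkar2a and Prkar2b are left out, and they rose too (log2 2.35 and 1.27 in CKO, 2.18 and 1.57 in WT). The ratio therefore does not give the balance of all regulatory and catalytic subunits. This ratio was 2.16 ± 0.571 in ovulated CKO and 4.59 ± 1.19 in GV CKO, with no overlap, and 2.87 ± 1.07 in ovulated WT and 4.46 ± 1.45 in GV WT (SD, n = 3 ovulated and 4 GV). WT oocytes overlapped, since ovulated replicate 3 had 4.06 and GV replicate 3 had 2.29. Adcy9 over Adcy3 was 62.4 to 82.2 in ovulated CKO and 2.57 to 13.7 in GV CKO, and 17.5 to 68 in ovulated WT and 4 to 13.9 in GV WT. The denominator of the last ratio rests on few reads. Gpr3 was above Gpr12 in every group, by a mean of 36.1 times in ovulated CKO, 60 times in ovulated WT, 31 times in GV CKO and 43.2 times in GV WT.

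**Figure D3:**
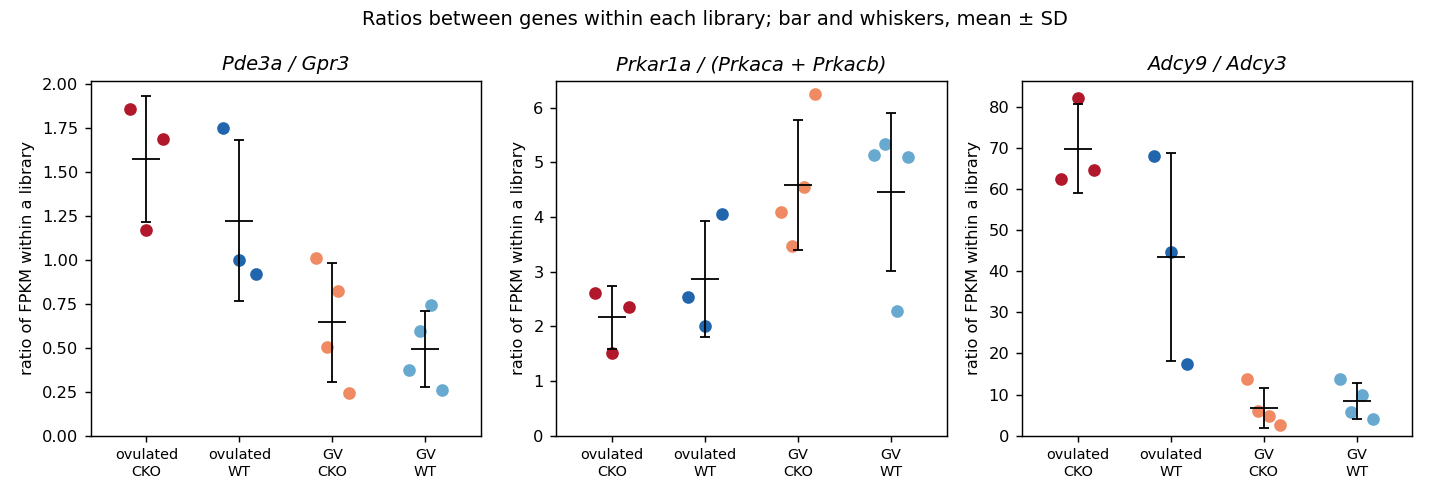
Ratios of FPKM within each library, with the mean and SD of each group (ovulated CKO and ovulated WT, 3 libraries each; GV CKO and GV WT, 4 each). Pde3a over Gpr3 is at most 1.01 in GV libraries and at least 0.921 in ovulated ones, with no overlap within a genotype, and Adcy9 over Adcy3 is at most 13.9 in GV libraries and at least 17.5 in ovulated ones.

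The CPE is a sequence feature that the choice of genes did not use. Of the 3 genes that hold it, Prkacb and Pde3a rose in ovulated oocytes of both genotypes, while Adcy3 did not pass. Gnas, Adcy9, Prkaca and Prkar1a rose without a CPE in the window. For Adcy9 the GENCODE transcript searched ends at 4287529, short of the RefSeq end of the gene at 4284886 (minus strand), so the last bases of the longer form were not searched. Among 12032 tested genes with an annotated 3′ end, 22.2% held a CPE. Genes with it had a median log2 fold change, ovulated over GV, of 0.55 in CKO and 0.69 in WT (2672 genes), and those without it had -0.26 in both genotypes (9360 genes). Of the genes with a CPE, 40.6% were called higher and 16.4% lower in CKO, against 23.6% and 31.9% of those without it. In WT, 44.9% were called higher and 18.8% lower with a CPE, against 27.2% and 36.5% without it. More copies of an mRNA and a longer tail on it cannot be told apart in these libraries, and the part of tail length in any value was not tested.

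The comparison of genotypes asked whether loss of Clpx altered the circuit at either stage. None of the 10 genes passed in ovulated oocytes or in GV oocytes, and in no gene did the CKO and WT libraries stand apart in CPM at either stage. Across all genes, 0.0083% passed among ovulated oocytes (1 of 12044) and 0.0245% among GV oocytes (3 of 12265), and 10.4% and 3.82% of the genes had libraries that did not overlap. At an unadjusted p under 0.05, edgeR listed 935 genes among ovulated and 704 among GV oocytes. These counts of calls depend on the tool and on 1 library, since DESeq2 called 114 genes in ovulated and 39 in GV oocytes, and edgeR called 201 in ovulated oocytes without CKO replicate 3 and 6 in GV oocytes without CKO replicate 1 or without CKO replicate 4. None of the 10 genes had an unadjusted p under 0.05 at either stage, and neither DESeq2 nor limma called any.

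In ovulated oocytes the log2 fold change, CKO over WT, ran from -0.34 (Adcy3) to 0.63 (Gpr12), with a median of 0.20 over the 10 genes and of -0.000484 over all genes tested. Pde3a had 0.25 (95% interval -0.38 to 0.88), Adcy9 0.51 (-0.21 to 1.24), Gja4 0.49 (-0.28 to 1.26) and Gnas 0.06 (-0.53 to 0.64). The intervals of these 4 genes lie between -0.53 and 1.26. The intervals of Adcy3 (-2.11 to 1.44) and Gpr12 (-0.95 to 2.20) were wider, and hold larger changes.

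In GV oocytes the range was from -0.45 (Prkaca) to 0.43 (Prkacb), with a median of -0.01, against 0.02 over all genes. The 95% intervals were narrower than in ovulated oocytes for Gpr3 (-0.56 to 0.32), Gnas (-0.41 to 0.33), Prkar1a (-0.58 to 0.28), Prkaca, Gpr12 and Adcy3, and wider for Gja4, Adcy9 (-0.83 to 0.88), Pde3a (-0.50 to 0.89) and Prkacb (-0.35 to 1.22). Gja4 had -0.41 (95% interval -1.28 to 0.45, edgeR adjusted p = 0.875), with 509.6 ± 260.8 CPM in GV CKO and 681.3 ± 251.4 CPM in GV WT (SD, n = 4 each). Prkaca had -0.45 (95% interval -1.001 to 0.11, adjusted p = 0.836), with 5.99 ± 0.256 CPM in GV CKO and 8.08 ± 2.56 CPM in GV WT (SD, n = 4 each). As FPKM, Gpr3 had 8.30, 8.84, 8.54 and 8.19 in GV CKO, against 12.4, 9.15, 11.6 and 9.38 in GV WT, with no overlap. In CPM the same libraries overlapped, at 17.8, 23.3, 15.5 and 23.6 in GV CKO and 21.9, 20.8, 19.6 and 24.7 in GV WT, and 2.89% of all genes had FPKM values that were lower in CKO without overlap.

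**Figure D4:**
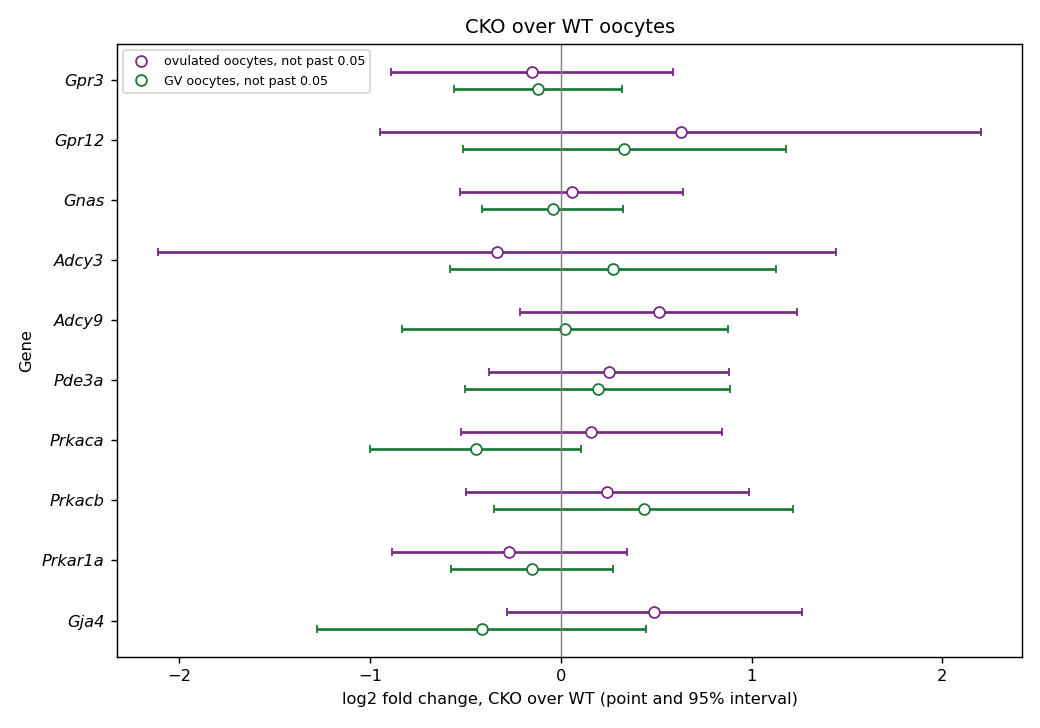
Log2 fold change of each gene, CKO over WT, in ovulated oocytes (purple) and GV oocytes (green), with 95% intervals. No gene passed an edgeR adjusted p of 0.05, and all 20 intervals include 0.

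Whether the CKO effect differed between stages was tested as an interaction, in which 1 of 13158 genes passed (0.0076%) and none of the 10 did. The largest values were 0.93 for Gja4 (95% interval -0.30 to 2.17, edgeR adjusted p = 0.692), 0.61 for Prkaca (-0.21 to 1.42, adjusted p = 0.699) and -0.59 for Adcy3 (-2.13 to 0.95, adjusted p = 0.893). For Gja4, the ovulated libraries had 29.1 ± 7.45 CPM in CKO and 20.4 ± 6.95 CPM in WT (SD, n = 3 each), the opposite order to the GV libraries. For Prkaca they had 24.2 ± 6.00 CPM in CKO and 21.5 ± 3.17 CPM in WT (SD, n = 3 each), also the opposite order. Neither difference passed.

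Within groups the 10 genes did not vary as a single unit. Over the 14 libraries, with each group's mean subtracted, 21 of the 45 pairs had a positive correlation of log2 CPM, 24 a negative one, and the median was -0.0653. Adcy9 and Pde3a varied most alike (r = 0.908), then Pde3a and Prkacb (0.833) and Adcy9 and Prkacb (0.76). The most negative value was that of Gnas and Adcy3 (-0.708), with few reads for Adcy3, and Pde3a went against Prkar1a (-0.646) and Gja4 (-0.641). In GV oocytes, replicate 4 of both genotypes was the lowest for Pde3a, Adcy9, Prkacb and Gpr12 and the highest for Gja4. The points of each pair share their library, its scaling factor and its depth. The number of genes detected in a library had correlations between -0.4 (Gnas) and 0.286 (Adcy3) with the same deviations. Among GV libraries, replicate 4 had the lowest TMM scaling factor in both genotypes (0.654 in CKO and 0.721 in WT). Replicate 3, the lowest for Gja4, had the highest factor (1.045 in CKO and 1.122 in WT). The part of the scaling factor in these patterns was not tested.

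Genes whose log2 CPM followed a member most closely over the 14 libraries were sought among 6577 genes, as a description. Pde3a was followed by Picalm (r = 0.996), a clathrin adaptor gene, Pum2 (0.995), which encodes an RNA-binding repressor, and Smad4 (0.995), the shared mediator of TGF-beta signals. Picalm averaged 97.9 CPM in ovulated CKO and 19.6 CPM in GV CKO, and 84.3 CPM in ovulated WT and 15.8 CPM in GV WT. Gja4 was followed by Spout1 (0.994), Pmm1 (0.992), which encodes a phosphomannomutase, and Yipf3 (0.989). Pmm1 averaged 4.8 CPM in ovulated CKO and 20.1 CPM in GV CKO, and 3.34 CPM in ovulated WT and 23.3 CPM in GV WT. Gpr3 had looser followers, which were Myom2 (0.903), Ern1 (0.87), the gene of an endoplasmic reticulum stress sensor, and Mier2 (0.854). The 14 points share the difference between stages.

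The rest of the pathway was followed in 10 lists with 143 genes. Genes named without values were chosen after their values were seen, to complete the count of a list. Some were low, with means over the libraries compared of 0.677 (Ric8a), 0.219 (S1pr2) and 0.699 CPM (Gper1) in WT and 0.293 CPM (Pde7a) in CKO. Between stages, 37 of the 107 genes tested rose, 25 fell and 45 did not pass in CKO oocytes, with a median of 0.149, and 32 rose, 31 fell and 44 did not pass in WT oocytes, with a median of 0.201. Over all genes tested 55.7% passed in CKO and 63.7% in WT, so the share of the lists that passed was near the background, and the medians over all genes were -0.14 and -0.08. Between genotypes, none of the 99 genes tested passed in ovulated oocytes, where the median was 0.0602, or in GV oocytes, where it was 0.0359. At an unadjusted p under 0.05, edgeR listed 8 of the 99 at each stage, against 935 of 12044 genes in ovulated and 704 of 12265 in GV oocytes. None of the 107 passed for the interaction, in which 11 had an unadjusted p under 0.05, against 1205 of all 13158 genes. A gene named below for a single genotype was therefore not shown to differ between genotypes.

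A-kinase anchoring proteins, which tether protein kinase A to places in the cell, had 9 of 12 genes higher and none lower in ovulated oocytes, in CKO (median 1.5) and in WT (median 1.36). These counts, and those of the lists that follow, stand against 25.8% of all genes higher and 29.9% lower in CKO, and 29.7% higher and 34% lower in WT. Here and in the other lists, values after ± are SD over 3 ovulated or 4 GV libraries. Akap2 averaged 274 ± 78.5 CPM in ovulated CKO and 65.1 ± 5.01 CPM in GV CKO (log2 2.07, edgeR adjusted p = 6.14e-06), and 361 ± 82.5 CPM in ovulated WT and 61.7 ± 4.98 CPM in GV WT (log2 2.55, adjusted p = 8.19e-07). Akap11 rose by 2.13 on the log2 scale in CKO and 2.30 in WT, and Akap17b by 1.63 and 2.20. The others that rose in both genotypes were Akap1, Akap7, Akap9, Akap10, Akap12 and Akap13.

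Among the other protein kinase A subunits and inhibitors, 2 of 5 rose and 1 fell in CKO, and 3 of 5 rose and 1 fell in WT. Prkar2a, the type II alpha regulatory subunit, averaged 198 ± 35.6 CPM in ovulated CKO and 38.7 ± 11.0 CPM in GV CKO (log2 2.35, edgeR adjusted p = 5.62e-06), and 174 ± 43.7 CPM in ovulated WT and 38.4 ± 3.89 CPM in GV WT (log2 2.18, adjusted p = 4.39e-06). Prkar2b rose by 1.27 in CKO and 1.57 in WT on the log2 scale. Pkig, a protein kinase inhibitor, had -1.14 in CKO and -0.96 in WT and fell in both. The inhibitor gene Pkia was the third that rose in WT, with under 1 CPM on average in every group.

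Phosphodiesterases went both ways, with 4 of 17 higher and 5 lower in CKO and 3 higher and 6 lower in WT. Pde3b, the close relative of Pde3a, averaged 114 ± 21.6 CPM in ovulated CKO and 22.1 ± 10.8 CPM in GV CKO (log2 2.36, edgeR adjusted p = 8.43e-05), and 91.5 ± 21.3 CPM in ovulated WT and 16.8 ± 6.46 CPM in GV WT (log2 2.45, adjusted p = 3.85e-05). Pde8a, a cAMP-specific form, rose by 2.10 in CKO and 1.98 in WT on the log2 scale. Pde4a rose in both genotypes and Pde7a in CKO, while Pde1a, Pde1b, Pde9a and Pde10a fell in both and Pde8b in WT. Pde6d, whose product carries prenylated proteins, had -2.38 in CKO and -4.36 in WT (edgeR adjusted p = 0.000242 and 2.27e-06). Its level was 66.3 ± 42.3 CPM in ovulated CKO and 15.7 ± 5.79 CPM in ovulated WT (SD, n = 3 each), a difference of 2.02 on the log2 scale that did not pass (adjusted p = 0.524).

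G protein genes and regulators of their receptors had 8 of 21 higher and 4 lower in CKO and 7 higher and 4 lower in WT. The inhibitory alpha subunit gene Gnai1 rose by 2.24 in CKO and 2.57 in WT on the log2 scale (edgeR adjusted p = 2.40e-05 and 4.17e-06), and Gnai2 by 2.48 and 2.49. Gnb2, a beta subunit gene, rose by 2.87 in CKO and 3.10 in WT, and Gng3, a gamma subunit gene, had -2.19 and -3.08 and fell. The G protein genes that fell in both genotypes also included Gnb4 and Gnb5, with Gng12 falling in CKO and Ric8a in WT. Among the other adenylyl cyclases 3 of 5 (Adcy5, Adcy6 and Adcy8) rose in CKO, and 1 of 5 (Adcy10, the soluble cyclase) fell in WT. Adcy5 had 1.01 on the log2 scale in CKO (edgeR adjusted p = 0.029) and 0.24 in WT (adjusted p = 0.589). The difference between these values, 0.77, did not pass (adjusted p = 0.736). Over the libraries compared, Adcy6 averaged 0.839 CPM and Adcy8 3.52 CPM in CKO, and Adcy10 averaged 1.29 CPM in WT. Among other receptor genes listed with the pathway, not all of which have an established link to cAMP, 1 of 7 rose and 3 fell in CKO. In WT 1 rose and 4 fell. Lpar1, a receptor for lysophosphatidic acid, had -1.26 in CKO and -1.34 in WT. Adora2b, an adenosine receptor gene, and Gper1 also fell in both and S1pr2 in WT, and Lgr4 was the gene that rose.

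Gap junction and pannexin genes other than Gja4 had 2 of 10 higher and 5 lower in CKO and 1 higher and 6 lower in WT, with medians of -1.10 and -1.44. Panx1 averaged 6.37 ± 3.59 CPM in ovulated CKO and 18.9 ± 4.98 CPM in GV CKO, and 2.91 ± 1.89 CPM in ovulated WT and 19.7 ± 2.91 CPM in GV WT, and fell in both (log2 -1.57 and -2.76, edgeR adjusted p = 0.0105 and 0.000192). Gja10, Gjb1, Gjb6 and Panx2 also fell in both and Gja3 in WT, while the connexin gene Gjc1 rose in both and Gjb2 in CKO. These genes, unlike Panx1, were all low. Over the libraries compared they averaged 0.512 (Gjc1) to 3.96 CPM (Gjb1) in CKO and 0.58 (Gjc1) to 5.38 CPM (Gjb1) in WT. In the cGMP arm 2 of 8 rose and 2 fell in each genotype, among them Gmps, a GMP synthase gene, with -1.84 in CKO and -1.89 in WT. Impdh2, another gene of GMP synthesis, fell in both, Prkg2, a cGMP-dependent kinase gene, rose in both, and the guanylyl cyclase gene Gucy1a1 rose in CKO and Gucy1a2 in WT. Gucy1a1 averaged 1.19 CPM over the CKO libraries and Gucy1a2 2.11 CPM over the WT libraries. Neither passed for the interaction (edgeR adjusted p = 0.918 and 0.717).

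Other effectors of cAMP had 5 of 13 higher and 2 lower in CKO and 5 higher and 3 lower in WT. Rapgef3, which encodes the cAMP-activated exchange factor EPAC1, averaged 0.762 ± 0.456 CPM in ovulated CKO and 15 ± 6.49 CPM in GV CKO, and 0.576 ± 0.326 CPM in ovulated WT and 23.8 ± 4.57 CPM in GV WT. It fell in both (log2 -4.28 and -5.37, edgeR adjusted p = 1.33e-05 and 1.80e-06). Atf1 and Crebbp, a transcription factor and a coactivator downstream of protein kinase A, rose by 1.10 and 1.31 in CKO and by 1.24 and 1.18 in WT on the log2 scale. The coactivator genes Crtc2 and Crtc3 also rose in both, Crtc1 in CKO and Rapgef4 in WT, while Creb3 fell in both and Crem in WT. At the CDK1 switch on which protein kinase A acts, 1 of 9 genes rose and 3 fell in CKO, and 1 rose and 4 fell in WT. Pkmyt1 was the gene that rose in CKO and Cdc25a the one in WT, and Cdc25c and Wee1, an inhibitory kinase of CDK1, fell in both. Over the libraries compared, Wee1 averaged 8.11 CPM in CKO and 6 CPM in WT. Wee2, whose product is the kinase named in the circuit above, was far more abundant, at 1000 and 939 CPM. It did not pass in either genotype (log2 -0.83, edgeR adjusted p = 0.0872 in CKO, and -0.56, adjusted p = 0.228 in WT). Cdk1 averaged 51.8 ± 5.86 CPM in ovulated CKO and 193 ± 25.1 CPM in GV CKO (log2 -1.90, edgeR adjusted p = 0.000448), and 81.6 ± 62.6 CPM in ovulated WT and 156 ± 24.1 CPM in GV WT (log2 -0.94, adjusted p = 0.0304). Cdc25b, the phosphatase gene that protein kinase A restrains, averaged 27.9 ± 17.1 CPM in ovulated CKO and 31.5 ± 5.66 CPM in GV CKO (log2 -0.17, adjusted p = 0.714), and 8.29 ± 2.34 CPM in ovulated WT and 33.6 ± 4.16 CPM in GV WT (log2 -2.02, adjusted p = 0.000432). The difference between these values, 1.84, did not pass (adjusted p = 0.295).

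**Figure D5:**
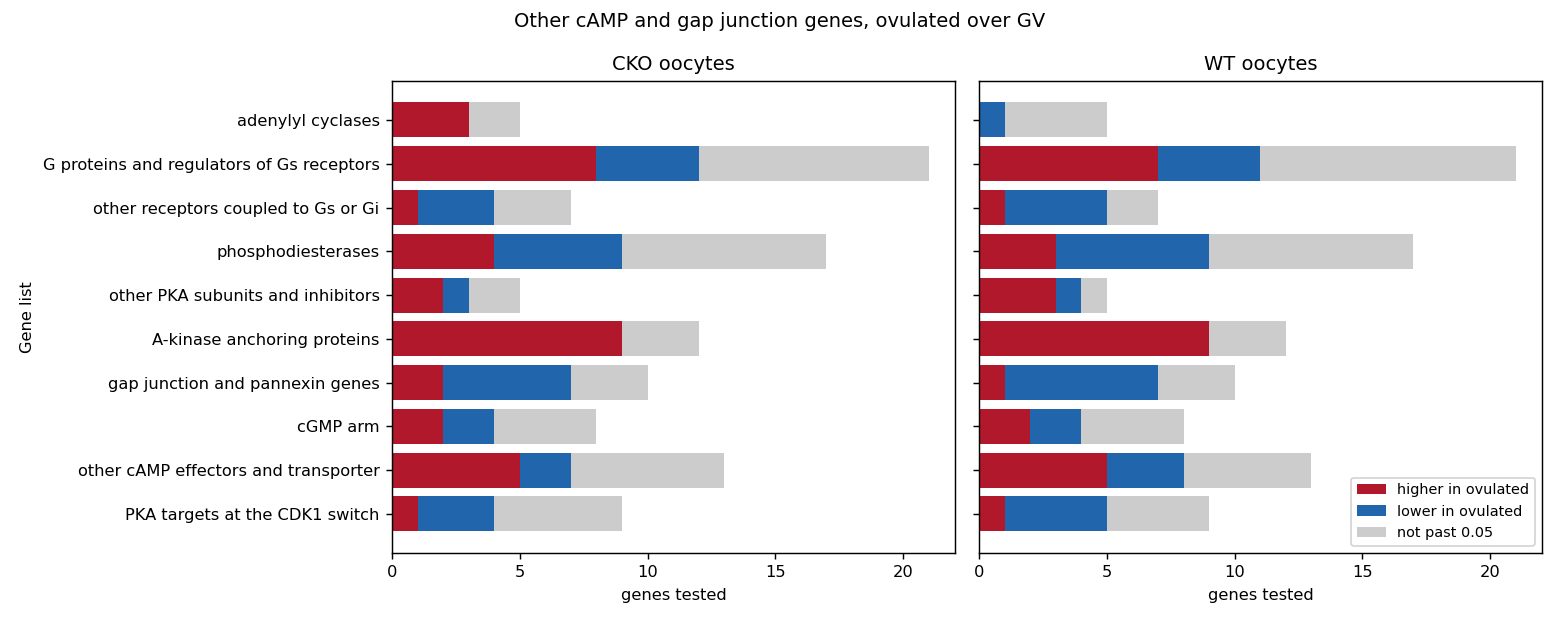
Number of genes in each of the 10 lists that rose (red), fell (blue) or did not pass an edgeR adjusted p of 0.05 (grey), ovulated over GV, in CKO (left) and WT oocytes (right). A-kinase anchoring proteins have 9 of 12 higher and none lower in both genotypes, and gap junction and pannexin genes have 5 of 10 lower in CKO and 6 of 10 in WT. Of the gap junction and pannexin genes called, all but Panx1 averaged at most 5.38 CPM over the libraries compared.

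Between genotypes, the genes of these lists with the smallest p did not pass. In ovulated oocytes the smallest was that of Pde6d (adjusted p = 0.524), whose levels are given above. Cdc25b averaged 27.9 ± 17.1 CPM in CKO and 8.29 ± 2.34 CPM in WT in ovulated oocytes (SD, n = 3 each; log2 1.71, edgeR adjusted p = 0.524). Gng10, a gamma subunit gene, averaged 6.23 ± 1.17 CPM in ovulated CKO and 2.74 ± 0.795 CPM in ovulated WT (SD, n = 3 each; adjusted p = 0.577). In GV oocytes it averaged 7.03 ± 1.24 CPM in CKO and 3.43 ± 0.872 CPM in WT (SD, n = 4 each; adjusted p = 0.583). It was the gene with the smallest p of its list at both stages, with 1.17 and 1.04 on the log2 scale.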

How the data were processed

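Each stage has a deposited table of estimated counts (expected counts, 14.4% to 16.3% of a library's values fractional) and a deposited table of FPKM values, which the authors scaled to gene length and library size. The build is mm10, per the submitters' processing notes. The aligner, counting tool, annotation and strandedness are not given in the sources used here, and libraries were made with SMART-Seq2, per the labels. Counts were rounded and tested with edgeR 4.0.16 in R 4.3.3 (TMM, filterByExpr minimum count 10, robust quasi-likelihood F-test). Genotypes were compared within a stage, and stages and the interaction in a fit of 14 libraries on the 16417 genes in both tables. Benjamini-Hochberg adjustment covered all genes tested (threshold 0.05). CPM uses TMM factors over the 14 libraries. Scripts were tested on simulated data.

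Alternatives were other scalings, no filter, DESeq2 1.42.0, limma 3.58.1 on log2 FPKM with a pseudocount, a replicate block and leaving out each library. All 10 genes passed the filter in every comparison. The 10 genes and the lists were chosen with earlier results of these data known. From each list, up to 3 genes that passed with the largest change and at least 10 CPM were named (between genotypes, the smallest p). Wee2 was added because the description of the circuit names its product. Positions are from RefSeq, build GRCm38.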

Additional observations from a re-analysis of the deposited data

How the results depend on the processing

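The 7 genes that passed between stages kept their call and direction under every alternative run in both genotypes (49 of 49 values in each, beside leaving out each library). No alternative called any of the 10 genes between genotypes or for the interaction. Of 808 alternative log2 fold changes of the 10 genes, 48 turned direction, all of results that did not pass, and 3 newly passed, which were Gpr3 in both genotypes with total-count scaling and Adcy3 in CKO with DESeq2 (-1.26, adjusted p = 0.0371). The cause of these moves was not tested.

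For Adcy9 in GV oocytes, CKO over WT, the value was -0.14 with total-count scaling, -0.061 with limma-voom, -0.061 with the replicate block, -0.093 on log2(FPKM + 1) with or without a filter and -0.20 on log2(FPKM + 0.1), where Pde3a had -0.00588. For Gpr12 in WT between stages it was 0.046 with RLE factors, 0.29 with total counts, 0.034 with no filter, 0.042 with DESeq2 and 0.0033 on the WT groups alone. For the interaction, total-count scaling gave 0.22 for Gpr3, 0.097 for Prkacb and 0.16 for Prkar1a, limma-voom gave 0.031 for Gpr3 and the replicate block 0.031. Total-count scaling moved the median of all genes to 0.0885 in ovulated and -0.142 in GV oocytes, and to 0.255 for the interaction.

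Counts over all genes moved more. Between genotypes, DESeq2 called 114 genes in ovulated and 39 in GV oocytes, and for the interaction 64. The fit of 14 libraries called 64 in ovulated oocytes, and limma on log2(FPKM + 1) without a filter called 0. For the interaction limma-voom and the replicate block each called 0.

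Leaving out 1 library gave 1 to 201 calls in ovulated oocytes (201 without CKO replicate 3 and 3 without WT replicate 3), 3 to 6 in GV oocytes (6 without CKO replicate 1 or without CKO replicate 4) and 0 to 498 for the interaction (498 without ovulated CKO replicate 3, 2 without ovulated WT replicate 3). In ovulated oocytes the ranges were -0.37 to 0.16 for Gpr3, -0.17 to 0.15 for Gnas, -0.0042 to 0.40 for Pde3a and -0.036 to 0.34 for Prkaca. In GV oocytes they were -0.13 to 0.038 for Gnas, -0.36 to 0.27 for Adcy9 and -0.041 to 0.42 for Pde3a. Gpr12 in WT between stages ranged from -0.16 to 0.15. For the interaction they were -0.23 to 0.33 for Gpr3, -0.072 to 0.25 for Gnas, -0.15 to 0.34 for Pde3a, -0.57 to 0.072 for Prkacb and -0.27 to 0.12 for Prkar1a.

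Replicate numbers were not taken as pairs, since the labels do not tie them to a shared animal or day and not every same-numbered pair had a correlation above 0.1. Same-numbered CKO and WT libraries had correlations of their deviations of -0.273, 0.344 and 0.0106 in ovulated oocytes and -0.262, 0.225, 0.369 and 0.435 in GV oocytes, and libraries with different numbers ran from -0.381 to 0.426 and from -0.466 to 0.366. The data thus leave it unsettled whether some GV numbers mark a shared source. Depth limits Gpr12 and Adcy3 most, with at most 44 and 27 reads in a library, and intervals cover the spread between these libraries.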
